A study of Mus musculus with 6 samples.

Results

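The genes described here make or sense prostaglandins and leukotrienes, the lipid mediators derived from arachidonic acid. They are 10 genes picked by name out of 34844 gene names on the array (*Pla2g4a*, *Ptgs1*, *Ptgs2*, *Ptges*, *Ptger2*, *Ptger4*, *Ptgir*, *Alox5*, *Alox5ap* and *Lta4h*), and every non-control spot that carries one of these names was used, which gave 11 probes out of 55681. Gene expression was measured on 6 one-color Agilent mouse arrays in macrophages grown from bone marrow of female wild type C57BL/6 mice for 7 days in L929-conditioned medium. Of 3 groups with 2 arrays each, from independent experiments, the first was untreated and the second was stimulated for 4 h with LPS, the bacterial lipopolysaccharide that activates TLR4. The third (LPS+USP7i) received 10 µM HBX41108, a small molecule inhibitor of the deubiquitinase USP7, for 30 min before the same LPS stimulation. The labels give mice of 6 to 8 weeks, while the methods of the study give an older range and name the J substrain. The LPS dose is 100 ng/ml in the series description and 100 ng/µl in the treatment protocol. The sources used here do not state whether the LPS group received the solvent of the inhibitor.

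As background, cytosolic phospholipase A2 frees arachidonic acid from membrane lipids, and the cyclooxygenases turn it into an unstable intermediate from which separate synthases make prostaglandin E2, prostacyclin, thromboxane and prostaglandin D2. In a second branch, 5-lipoxygenase with its activating protein makes leukotriene A4, which is converted to leukotriene B4 or to the cysteinyl leukotrienes. Macrophages are a classic source of both kinds of mediator, and inducible cyclooxygenase and inducible prostaglandin E synthase are textbook targets of LPS.

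The macrophage label was checked against 7 markers (*Adgre1*, *Csf1r*, *Cd68*, *Itgam*, *Lyz2*, *Cd14* and *Mertk*), and 7 of 7 were well above background on all 6 arrays. The sum of their signals on the linear scale was 720325 and 715037 on the untreated arrays, 713267 and 739930 on the LPS arrays, and 625157 and 584187 on the LPS+USP7i arrays. Single markers moved within this sum: *Cd14* rose by 1.69 with LPS (adjusted p = 0.00518) and fell by 1.31 with the inhibitor (0.0184), and *Itgam* fell by 0.66 with LPS (0.0233). Among markers of other cell types, 6 of 6 for neutrophils were also well above background on all 6 arrays. Their summed signal was higher on the replicate 2 array of each group (5222 against 6860, 5849 against 11431, and 6188 against 9528). This held for *S100a8*, *S100a9*, *Camp* and *Elane*, while *Ly6g* and *Mpo* were lower on the replicate 2 array of every group. The 4 B cell markers, led by *Cd79b*, ran the other way, with 1043 against 656 in untreated cells, 1137 against 518 with LPS, and 686 against 281 with LPS+USP7i. No neutrophil, mast cell, B cell, T or NK cell, platelet, stromal or erythroid marker passed the test in any comparison (0 genes by the brightest probe). Calls were made for *Prg2* (eosinophils), lower with LPS+USP7i than with LPS (adjusted p = 0.0151) or untreated (0.0102), and *Zbtb46* (dendritic cells), higher than untreated with LPS (0.00435) and with LPS+USP7i (0.00806). *Prg2* was above background on neither LPS+USP7i array and *Zbtb46* on neither untreated array, so no size is given. What share of the cells was of another type was not tested. In bulk RNA, fewer cells of a type and less RNA per cell cannot be told apart.

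All arrays lay on 1 slide that was read in 1 scan. The slide has 2 rows, and each group had 1 array in each row, but untreated, LPS and LPS+USP7i arrays took places 1, 2 and 4 along the rows, so place on the slide and treatment cannot be told apart. Between 42.2% and 46.3% of the 59305 spots were well above background on each array. Below, a level is a log2 normalized signal, values are given for replicate 1 and then replicate 2, and a gene "rose" or "fell" where limma's p value, adjusted over 55680 probes, was under 0.05. Replicates differed with an SD of 0.29, 0.34 and 0.40 in the untreated, LPS and LPS+USP7i groups, over probes well above background on every array. With 2 arrays a group, the smallest two-sided p of an exact permutation test is 0.333, so that test separates no single gene. Results were also refitted with each array left out. Such a fit keeps 1 array in a group, whose spread then comes from the other groups, and for LPS+USP7i minus LPS the fits without either untreated array, like a fit of those 2 groups alone, called 0 probes of the whole array. No gene could pass there, so for that comparison the 4 fits without an LPS or LPS+USP7i array are given.

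Counted by the brightest probe of each gene, LPS raised 1 of the 10 genes (*Ptgs2*) and lowered 1 (*Alox5ap*). Over all 34844 gene names the test called 7.98% higher and 12.8% lower with LPS, and among the 18343 gene names that, like all 10 members, had some group with both arrays well above background, it called 13.8% and 23.0%. This balance depends on the scaling: of the probes called with LPS, 39.9% were higher here and 79.3% under 75th percentile scaling. At an unadjusted p under 0.05 by limma, 2 members were higher and 2 lower, beside 12.5% and 20.6% over all gene names and 20.5% and 36.0% above background. In LPS+USP7i minus LPS, 1 gene was higher (*Ptger2*) and 0 were lower, beside 5.51% higher and 4.28% lower over all gene names and 9.73% and 7.29% among those above background. At an unadjusted p under 0.05 by limma, 4 members were higher and 1 lower in that comparison, beside 14.3% and 11.7% over all gene names and 24.1% and 19.2% above background. In LPS+USP7i minus untreated, 2 genes were higher (*Ptgs2* and *Ptger2*) and 0 were lower, beside 6.15% and 8.72% over all gene names and 10.8% and 15.6% above background. The counts at an unadjusted p under 0.05 by limma were 4 and 2, beside 12.2% and 16.6%, and 19.9% and 28.7% above background. These counts were not tested, and what follows is about single genes. The 3 comparisons share arrays (both LPS arrays enter the first and second). The median difference of the 10 genes was −0.29, −0.02 and 0.27 in the same order, beside −0.19, 0.06 and −0.09 for gene names above background.

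**Figure D1:**
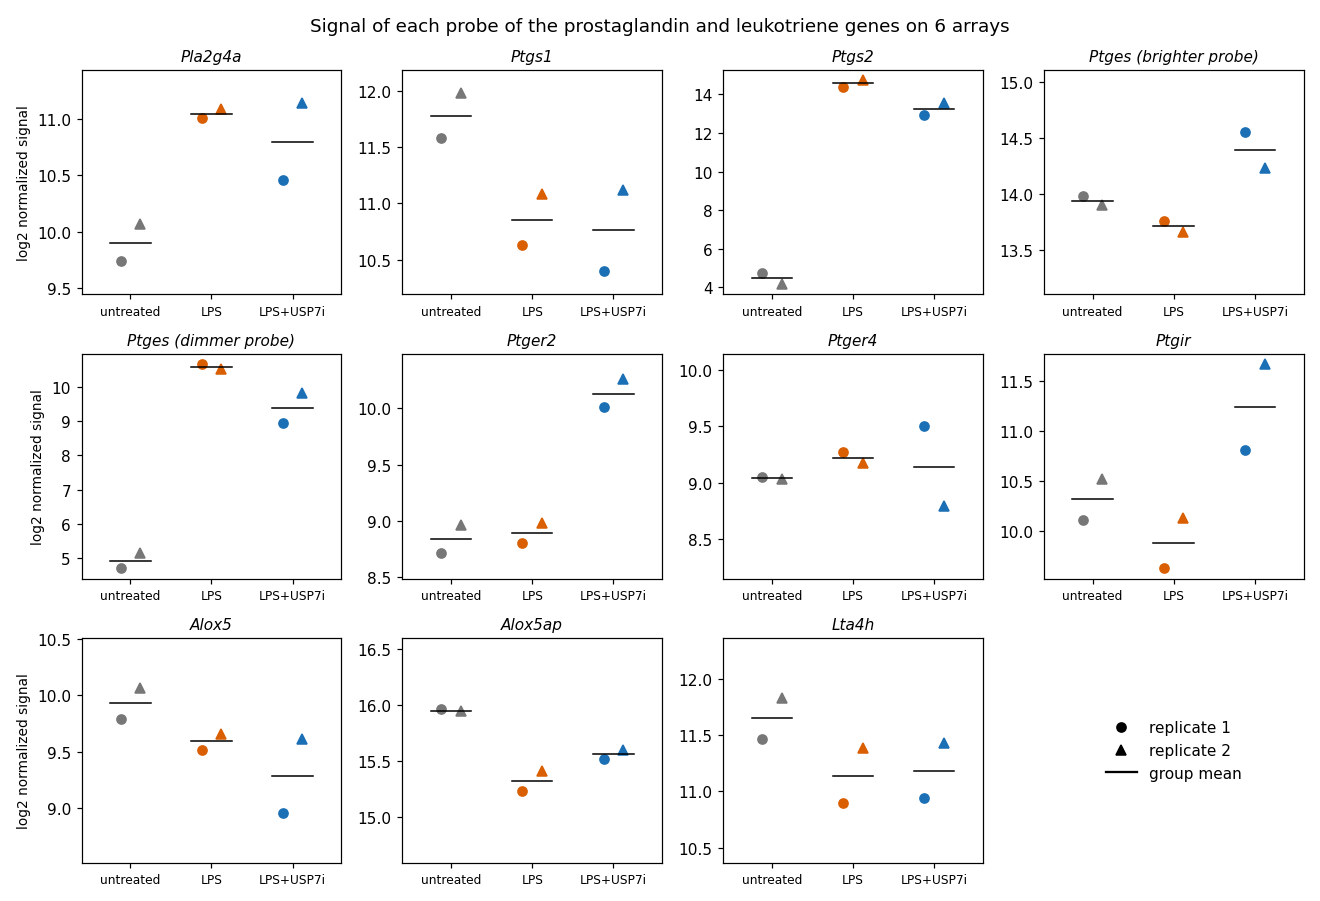
Log2 normalized signal (vertical axis, with its own range in each panel) of the 11 probes on the 6 arrays; circles are replicate 1, triangles replicate 2 and bars group means. Ptgs2 and the dimmer Ptges probe sit near 5 or below in untreated cells and above 8.9 in both LPS groups, and Ptger2 is above 10 only with LPS+USP7i.

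*Pla2g4a* encodes cytosolic phospholipase A2, which releases the arachidonic acid used by both branches. Its probe read 9.74 and 10.07 untreated, 11.01 and 11.09 after LPS, and 10.46 and 11.14 with LPS+USP7i. Both LPS groups lay above the untreated arrays without overlap, while the LPS+USP7i values spread on both sides of the LPS values. The LPS difference of 1.15 (standard error 0.27, 95% interval 0.39 to 1.91) missed the threshold (adjusted p = 0.0677 by limma), and the inhibitor difference was −0.25 (interval −1.01 to 0.51). The LPS difference did pass in 6 of 8 alternative settings, with adjusted p values from 0.0176 to 0.0678. A setting among these fitted the 2 groups alone (0.0367), and leaving out either LPS+USP7i array gave the same value, while without any 1 of the other 4 arrays the adjusted p was 0.156 to 0.240. In RefSeq, *Pla2g4a* neighbors *Ptgs2* on chromosome 1, with 0 protein-coding genes between them (a pseudogene and *Ptgs2os*, a noncoding RNA, lie there).

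Among the 12 other phospholipases A2 and lipases that were listed, 9 were above background. *Pla2g15*, the lysosomal phospholipase A2, read 12.56 and 12.44 untreated, 11.03 and 10.81 after LPS, and 11.72 and 11.50 with LPS+USP7i. The inhibitor-treated cells lay between the other groups on both arrays. *Pla2g15* fell by 1.58 with LPS (standard error 0.13, adjusted p = 0.00635), and it was still lower than untreated in LPS+USP7i, by −0.89 (adjusted p = 0.0261), while the step from LPS to LPS+USP7i, 0.69, did not pass (adjusted p = 0.0604). The LPS call held with any 1 array left out, and the call against untreated was lost with any 1 left out (adjusted p 0.0518 to 0.122). *Daglb*, a diacylglycerol lipase, fell by 1.04 with LPS (adjusted p = 0.0403), a call lost when any 1 of the 6 arrays was left out (adjusted p 0.0582 to 0.159) and under 75th percentile scaling, where the difference was −0.59 (0.107). *Pla2g5*, a secreted phospholipase A2, rose by 1.88 from LPS to LPS+USP7i (standard error 0.22, adjusted p = 0.0248). Its arrays read 6.69 and 6.59 untreated, 5.68 and 5.86 after LPS, and 7.93 and 7.37 with LPS+USP7i, so the inhibitor group was the highest and the LPS group the lowest. This call held without either LPS+USP7i array and was lost without either LPS array, with adjusted p values from 0.0243 to 0.102, and the second *Pla2g5* probe was near background throughout. Of 4 genes for re-esterification and phospholipase regulation, all above background, 0 passed in any comparison, also at an unadjusted p under 0.05 by limma, and their differences lay between −0.20 and 0.16.

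The cyclooxygenases behaved unlike each other. *Ptgs2*, the inducible enzyme, is read by 10 spots of 1 probe, which gave 4.76 and 4.16 untreated, 14.38 and 14.74 after LPS, and 12.91 and 13.55 with LPS+USP7i. All 4 LPS-stimulated arrays were far above both untreated arrays, and both inhibitor-treated arrays lay below both LPS arrays. The untreated signal was well above background on 1 of the 2 arrays, so the size of the difference rests on a level close to the floor. *Ptgs2* rose by 10.10 with LPS (standard error 0.34, interval 9.17 to 11.03, adjusted p = 0.00258) and was higher than untreated by 8.77 in LPS+USP7i (adjusted p = 0.00454). Both calls held with any 1 array left out and in all 8 alternative settings, in which the LPS difference ranged from 8.01 to 10.49.

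From LPS to LPS+USP7i the *Ptgs2* difference was −1.33 (standard error 0.34, interval −2.27 to −0.40), a 2.52-fold lower signal that missed the threshold (adjusted p = 0.108). Replicate 1 gave −1.47 and replicate 2 gave −1.19. The deposited values (adjusted p = 0.0387), normexp correction of the background (0.00977) and a fit without dim probes (0.0307) put it past the threshold, and over all alternative settings the adjusted p ran from 0.00977 to 0.158. With 1 array left out the difference ran from −1.65 to −1.01, and it did not pass without any 1 LPS or LPS+USP7i array.

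*Ptgs1*, the constitutive cyclooxygenase, read 11.58 and 11.98 untreated, 10.63 and 11.08 after LPS, and 10.40 and 11.12 with LPS+USP7i. Both LPS groups lay below the untreated arrays and overlapped each other. The difference was −0.93 with LPS (standard error 0.33, interval −1.85 to −0.01, adjusted p = 0.169) and −0.09 with the inhibitor on top (interval −1.01 to 0.83), and neither passed. With the replicate number as a block the LPS difference reached an adjusted p of 0.0298, against 0.0298 to 0.180 over the alternative settings.

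The start-proximal sequence of *Ptgs2* is shown because its gene had the widest LPS difference of the members. That of *Ptges* is shown because it was the other member with a probe raised by LPS. *Alox5ap*, the remaining member past the threshold with LPS, had no printed stretch. Of the 10 genes, 9 matched the RefSeq promoter table (GRCm38.p6), and the 250 bases before each start were read 5′ to 3′ on the gene's strand. Capitals mark letters of any of 7 motifs, searched on both strands: κB GGNNTTNCC, CRE TGACGT, AP-1 TGANTCA, C/EBP TTGCNNAA, interferon response GAANNGAAA, PU.1 GAGGAA and the TATA box letters TATAAA. *Ptgs2* lies on the plus strand at chr1:150099781-150100030 and *Ptges* on the minus strand at chr2:30903298-30903547.
Ptgs2: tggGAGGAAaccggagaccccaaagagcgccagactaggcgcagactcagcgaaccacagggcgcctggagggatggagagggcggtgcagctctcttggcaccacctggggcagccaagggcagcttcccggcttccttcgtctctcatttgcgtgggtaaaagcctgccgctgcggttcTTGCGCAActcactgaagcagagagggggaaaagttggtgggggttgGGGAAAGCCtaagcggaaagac
Ptges: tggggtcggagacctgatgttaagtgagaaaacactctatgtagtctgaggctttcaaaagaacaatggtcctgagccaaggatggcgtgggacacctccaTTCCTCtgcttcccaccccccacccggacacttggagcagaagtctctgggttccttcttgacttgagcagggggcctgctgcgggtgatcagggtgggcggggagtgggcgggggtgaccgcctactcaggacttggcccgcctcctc

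The *Ptgs2* stretch (61.6% G or C) held 3 matches that did not overlap. They were PU.1 letters from 247 to 242 bases before the start, C/EBP letters from 69 to 62, and κB letters on the other strand from 22 to 14. The *Ptges* stretch (59.6% G or C) held 1 match, PU.1 letters on the other strand from 149 to 144. Over all 32851 promoters of the table, 13.5% held the κB letters, 6.47% CRE, 6.75% AP-1, 9.56% C/EBP, 6.31% the interferon response letters, 23.3% PU.1 and 12.4% TATA. PU.1 letters also stood before *Ptgs1*, *Alox5*, *Lta4h* and *Ptgir*, and in *Ptgir* 1 of 2 PU.1 matches overlapped interferon response letters. *Pla2g4a* has 2 starts in the table, 1 with TATA letters about 200 bases away and 1 with none of the motifs, and *Ptger2* and *Ptger4* held none. A match is only a match of letters, distances count from the start RefSeq lists, and a missing match says only that the letters are not in this window.

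**Figure D2:**
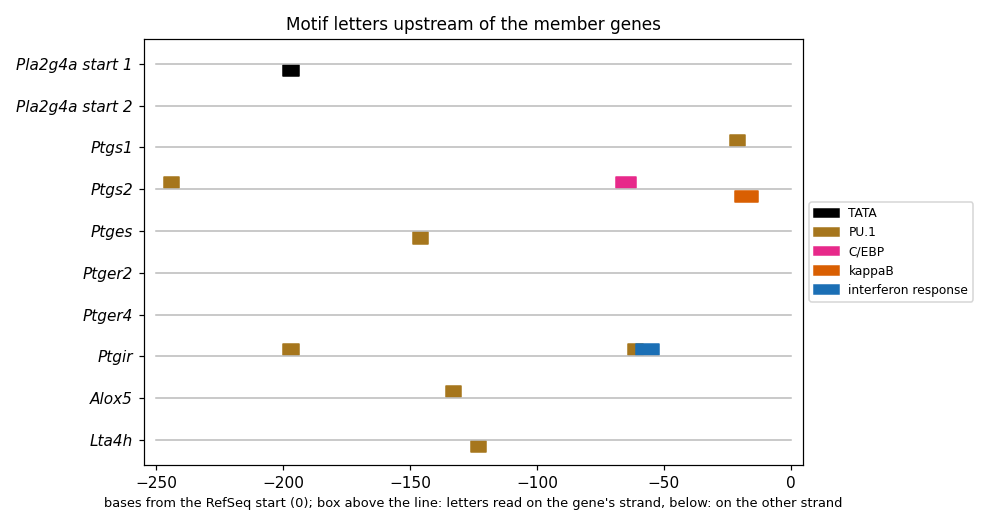
Positions of motif letters in the 250 bases before the RefSeq start of the 9 member genes in the table (horizontal axis, bases from the start; boxes above the line are read on the gene's strand, below it on the other strand). The κB and C/EBP boxes stand only on the Ptgs2 line, and PU.1 boxes stand on 6 genes.

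*Ptges* encodes the inducible microsomal prostaglandin E synthase, which works downstream of the cyclooxygenases, and its 2 probes disagreed. Both lie on the minus strand of chromosome 2 in the mm9 coordinates of the array, 3159 bases apart. The probe nearer the 5′ end (chr2:30748214-30748273, start 364 in the transcript as the file gives it) was the dimmer, and the probe near the 3′ end (chr2:30744995-30745054, start 3583) was the brighter. Their first 30 bases are printed, since the result depends on which stretch of the transcript is read.
Ptges dimmer probe: aaccctctgatcgcctggatacatttcctc
Ptges brighter probe: atgataaaggactaaacctctgaacctgta

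The dimmer probe read 4.70 and 5.16 untreated, 10.66 and 10.51 after LPS, and 8.93 and 9.82 with LPS+USP7i, and was well above background on all 6 arrays. Untreated arrays were far below all others, and both inhibitor-treated arrays lay below both LPS arrays. It rose by 5.65 with LPS (standard error 0.36, interval 4.65 to 6.65, adjusted p = 0.00438), which is 50.2-fold, with differences from 3.80 (normexp) to 5.79 over the alternative settings, and was 4.44 above untreated in LPS+USP7i (adjusted p = 0.00932), or 2.65 to 4.54 over the settings. The first call held with any 1 array left out, while the second was lost without untreated replicate 1 or 2 (adjusted p = 0.0546 and 0.0532). From LPS to LPS+USP7i it differed by −1.21 (interval −2.21 to −0.21, adjusted p = 0.150), −1.73 in replicate 1 and −0.69 in replicate 2. It passed with normexp background correction (0.0142) and with dim probes left out (0.0469). With 1 array left out it ran from −1.66 to −0.77, and it did not pass without any 1 LPS or LPS+USP7i array.

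The brighter probe read 13.98 and 13.90 untreated, 13.76 and 13.66 after LPS, and 14.55 and 14.23 with LPS+USP7i. Here the LPS arrays were the lowest and the inhibitor-treated arrays the highest, with no overlap between the 3 groups. The LPS difference was −0.23 (interval −0.60 to 0.13, adjusted p = 0.380), and under 75th percentile scaling it turned to 0.31 (adjusted p = 0.0575). The step to LPS+USP7i was 0.68 (interval 0.32 to 1.04, adjusted p = 0.0623), opposite in sign to that of the dimmer probe. It passed with normexp background correction, with dim probes left out and with a trended prior, with adjusted p values from 0.0186 to 0.146 over the 8 alternative settings. With 1 array left out it ran from 0.52 to 0.84. It passed without LPS+USP7i replicate 2, but not without LPS+USP7i replicate 1 or either LPS array. Because genes were counted by the brightest probe, *Ptges* entered the counts above at the adjusted threshold as not passing. In the counts at an unadjusted p under 0.05 by limma, it entered as higher in both comparisons of LPS+USP7i. By the dimmer probe LPS would raise 2 of the 10 genes at the adjusted threshold. Which probe tracks the transcript of the enzyme was not tested.

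**Figure D3:**
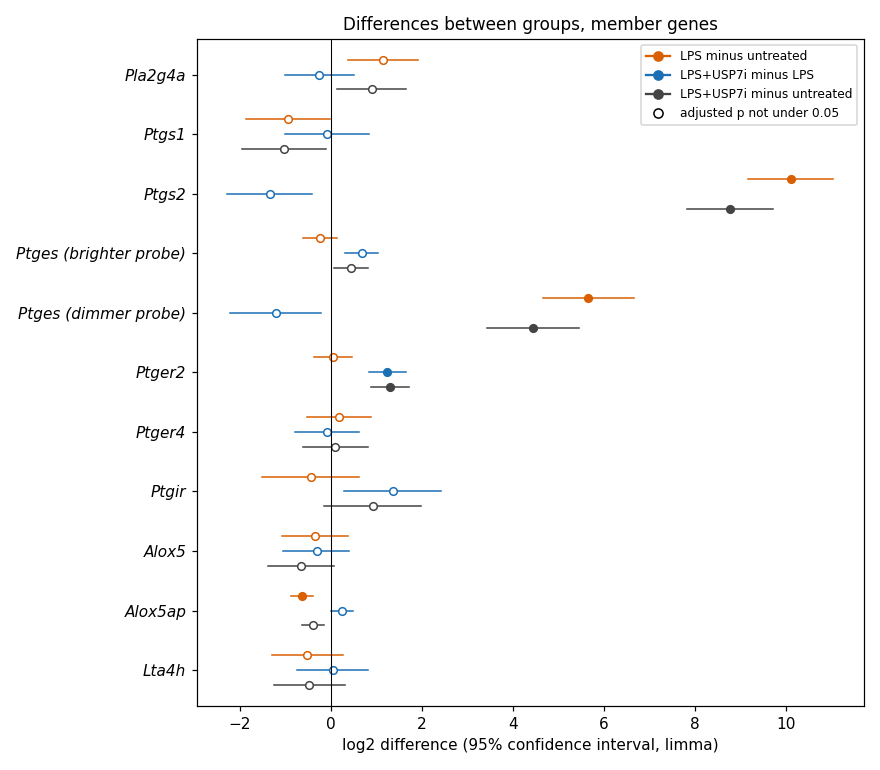
Log2 differences (horizontal axis) of the 11 probes in the 3 comparisons, with 95% confidence intervals from limma; filled points had an adjusted p under 0.05. Ptgs2 and the dimmer Ptges probe stand at 10.10 and 5.65 with LPS, the brighter Ptges probe at −0.23, and Ptger2 is filled in both comparisons of LPS+USP7i.

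Of 9 genes for other prostanoid synthases, 8 were above background. With LPS, *Hpgds* (prostaglandin D2) fell by 0.77 (adjusted p = 0.0324), *Tbxas1* (thromboxane) fell by 0.70 (0.0266), *Cbr1* fell by 0.75 (0.0258) and *Fam213b*, a prostaglandin F synthase, fell by 0.87 (0.0103). *Akr1b3*, an aldose reductase that can make prostaglandin F2α, fell by 0.40 (adjusted p = 0.0389) by its brighter probe but stood at 0.17 under 75th percentile scaling, and its other probe differed by −0.05 (adjusted p = 0.768). Of the 5, *Fam213b* kept its call without either LPS array and lost it without either untreated array. *Cbr1* and the other 3 lost theirs without any untreated or LPS array. Without an LPS+USP7i array, which is outside this comparison, *Fam213b* and *Cbr1* kept theirs and the other 3 did not. With the deposited values only *Fam213b* passed (0.0167), and *Hpgds* (0.0777), *Tbxas1* (0.0601), *Akr1b3* (0.169) and *Cbr1* (0.0584) did not. Under 75th percentile scaling *Fam213b* and *Cbr1* shrank to −0.44 each but passed (0.0490 and 0.0275), while *Tbxas1* (−0.23, adjusted p = 0.304) and *Akr1b3* (0.386) did not, and with the replicate block *Akr1b3* did not (0.0524). *Fam213b* was also lower in LPS+USP7i than untreated, with a difference of −0.66 (adjusted p = 0.0240). That call was lost under 75th percentile scaling (0.0681) and with the deposited values (0.0597).

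*Ptges3*, the cytosolic prostaglandin E synthase also known as the cochaperone p23, has 4 probes. Its brightest read 13.33 and 13.28 untreated, 13.64 and 13.57 after LPS, and 14.52 and 14.49 with LPS+USP7i. The groups stood in that order with no overlap. It rose by 0.90 from LPS to LPS+USP7i (standard error 0.06, adjusted p = 0.0135) and by 1.20 from untreated (adjusted p = 0.00573), and the other 3 probes gave 0.57 to 0.84 and 0.95 to 1.34, with 1 of them not passing in the first of these. The call against LPS held in all 4 fits without an LPS or LPS+USP7i array (adjusted p 0.0319 to 0.0450), and that against untreated held without any 1 array. Its LPS difference of 0.30 (adjusted p = 0.0494) passed by this probe alone and was 0.82 under 75th percentile scaling (0.00563). It was lost with any array left out, with the replicate block (0.0599), with the deposited values (0.215) and with dim probes left out (0.0898). *Ptges2*, a membrane-associated synthase, fell by 0.58 from LPS to LPS+USP7i (adjusted p = 0.0347) with 0.01 for LPS alone. That call was lost without any 1 LPS or LPS+USP7i array, with the replicate block (0.0671) and with the deposited values (0.127). Against untreated, LPS+USP7i differed by −0.58 (adjusted p = 0.0252), or −0.64 to −0.51 with 1 array left out. This difference did not pass with the replicate block (0.0521) or the deposited values (0.131).

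Of 5 genes for prostaglandin transport and breakdown, 4 were above background. *Hpgd* encodes the dehydrogenase that starts prostaglandin inactivation. Its brighter probe read 9.81 and 9.50 untreated, 8.44 and 8.54 after LPS, and 7.71 and 7.64 with LPS+USP7i. It was thus lower in each successive group, on both arrays. *Hpgd* fell by 1.16 with LPS (standard error 0.13, adjusted p = 0.0114), by a further 0.82 with the inhibitor (adjusted p = 0.0429) and by 1.98 from untreated to LPS+USP7i (adjusted p = 0.00697), and its other probe fell by 1.11, 0.82 and 1.92. The inhibitor step ran from −0.87 to −0.77 with 1 array left out and reached −0.71 with normexp. It was lost without any 1 LPS or LPS+USP7i array (adjusted p 0.122 to 0.146), with the replicate number as a block (0.0695) and with the deposited values (0.0600), and the LPS step was lost without LPS replicate 1 (0.0630) or 2 (0.0506), while the whole difference held without any of them.

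*Ptgr1* and *Ptgr2* encode reductases that act after *Hpgd*, and they did not move together. *Ptgr1* read 11.20 and 11.52 untreated, 10.83 and 11.11 after LPS, and 13.06 and 13.87 with LPS+USP7i. The inhibitor group was above both others, which lay close to each other. *Ptgr1* rose by 2.50 from LPS to LPS+USP7i (standard error 0.33, adjusted p = 0.0298), which is 5.65-fold, and by 2.11 from untreated (adjusted p = 0.0296). Without 1 LPS or LPS+USP7i array its adjusted p against LPS ran from 0.0384 to 0.122 and passed in 2 of 4 fits, and against untreated it ran from 0.0308 to 0.134 and passed in 1 of 6. *Ptgr2* fell by 0.88 with LPS (adjusted p = 0.00627), at all 3 of its probes, and ran from −0.93 to −0.82 with 1 array left out. It differed by −0.07 between LPS+USP7i and LPS (interval −0.27 to 0.13) and by −0.94 between LPS+USP7i and untreated (adjusted p = 0.00832).

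Among the member receptors, *Ptger2* encodes EP2, a prostaglandin E2 receptor that raises cyclic AMP. Its probe read 8.71 and 8.96 untreated, 8.80 and 8.98 after LPS, and 10.01 and 10.26 with LPS+USP7i. Untreated and LPS arrays overlapped, and both inhibitor-treated arrays stood above them. *Ptger2* rose by 1.24 from LPS to LPS+USP7i (standard error 0.15, interval 0.83 to 1.66, adjusted p = 0.0265), 2.37-fold, and by 1.30 from untreated (adjusted p = 0.0164), while LPS alone differed by 0.05 (interval −0.36 to 0.47). The difference from LPS stayed between 1.12 and 1.37 with 1 array left out, but the call was lost without any 1 LPS or LPS+USP7i array (adjusted p 0.0629 to 0.103). The call against untreated was lost without untreated replicate 1 (0.0751), untreated replicate 2 (0.0637) or LPS+USP7i replicate 2 (0.0557).

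*Ptgir*, the prostacyclin receptor, read 10.11 and 10.52 untreated, 9.63 and 10.13 after LPS, and 10.81 and 11.67 with LPS+USP7i. The inhibitor-treated arrays were the highest pair but differed widely from each other. The difference from LPS was 1.36 (standard error 0.38, interval 0.30 to 2.42, adjusted p = 0.133), not past the threshold. Replicate 1 gave 1.18 and replicate 2 gave 1.55, and with the replicate number as a block the difference passed (adjusted p = 0.0465). The block was among the 3 of 8 alternative settings in which it passed, with adjusted p values from 0.0386 to 0.232. With 1 array left out the difference ran from 0.93 to 1.8, and it did not pass without any 1 LPS or LPS+USP7i array. *Ptger4*, which encodes the other cyclic AMP-raising E2 receptor, EP4, read 9.05 and 9.03, 9.27 and 9.17, and 9.50 and 8.79 in the same group order. Its inhibitor-treated arrays fell on both sides of the others, and no difference passed (0.18, −0.08 and 0.10, all intervals within −0.79 to 0.89).

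Of 6 other prostanoid receptors, 1 was above background. This was *Ptger3* (EP3), at 5.53 and 5.74 untreated, 5.42 and 5.09 with LPS, and not well above background on either LPS+USP7i array. It was lower in LPS+USP7i than in untreated cells (adjusted p = 0.0196), with no size given since the LPS+USP7i level was not measured, and the call was lost with the deposited values (0.122) and with a trended prior (0.0780). With 1 array left out, that call held only without an LPS array, which is outside this comparison. It was lost without any untreated or LPS+USP7i array. *Tbxa2r*, the thromboxane receptor, passed as higher in LPS+USP7i minus LPS (adjusted p = 0.0319) although it was well above background on 1 array in all, so no size is given.

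In the leukotriene branch all 3 members were measured on every array. *Alox5ap*, which presents arachidonic acid to 5-lipoxygenase, read 15.96 and 15.95 untreated, 15.23 and 15.41 after LPS, and 15.52 and 15.60 with LPS+USP7i. The LPS arrays were the lowest, the inhibitor-treated arrays came next and the untreated arrays were the highest, with no overlap. *Alox5ap* fell by 0.63 with LPS (standard error 0.09, interval −0.87 to −0.39, adjusted p = 0.0179), a 1.55-fold lower signal. The call was lost without untreated replicate 1 (adjusted p = 0.0919), untreated replicate 2 (0.0934) or LPS replicate 1 (0.0515), and under 75th percentile scaling the difference shrank to −0.06 (0.751). With the deposited values it was −0.66 (0.0501). The step to LPS+USP7i was 0.24 (interval 0.00 to 0.48, adjusted p = 0.217), from 0.07 under 75th percentile scaling to 0.32 with normexp, and 0.15 to 0.33 with 1 array left out.

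*Alox5*, the 5-lipoxygenase itself, read 9.79 and 10.07 untreated, 9.51 and 9.66 after LPS, and 8.95 and 9.61 with LPS+USP7i. The untreated arrays were the highest, and the LPS+USP7i arrays overlapped those of LPS. Its differences of −0.34, −0.31 and −0.66 did not pass, with intervals reaching from −1.38 to 0.41. *Lta4h*, which makes leukotriene B4, read 11.47 and 11.83, 10.90 and 11.39, and 10.94 and 11.43 in the same order. Both LPS groups were nearly equal and below the untreated arrays, and the differences of −0.51, 0.04 (−0.05 under 75th percentile scaling) and −0.47 did not pass. With the replicate number as a block, both differences from untreated cells did (adjusted p = 0.0352 and 0.0490).

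Of 7 genes for leukotriene C4 and for leukotriene breakdown, 6 were above background. *Abcc1*, the transporter that exports leukotriene C4, rose by 0.78 with LPS (adjusted p = 0.0459) and by 1.29 from untreated to LPS+USP7i (adjusted p = 0.0186). Both calls held without either LPS+USP7i array and were lost without any other 1. For the LPS call the LPS+USP7i arrays are outside the comparison, so it was lost without any array of its own groups. With the replicate number as a block the LPS call was lost (adjusted p = 0.0870).

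Of 5 leukotriene receptor genes, 3 were above background. *Ltb4r1* did not pass (−0.15 from LPS to LPS+USP7i, adjusted p = 0.962), and the cysteinyl leukotriene receptors *Cysltr1* and *Cysltr2* fell with the inhibitor by their brightest probes. *Cysltr2* read 5.99 and 6.29 untreated, 9.17 and 9.11 after LPS, and 6.49 and 7.26 with LPS+USP7i. Only the LPS arrays were high, and the inhibitor-treated arrays lay just above the untreated ones. *Cysltr2* rose 8.02-fold with LPS (adjusted p = 0.00884, with log2 differences from 2.21 to 3.05 over the alternative settings), fell by 2.26 with the inhibitor (adjusted p = 0.0302), and differed by 0.74 between LPS+USP7i and untreated (adjusted p = 0.240). With 1 array left out, the rise ran from 2.85 to 3.15 and the fall from −2.65 to −1.88. The rise was lost without either untreated array or LPS replicate 1, and held without LPS replicate 2. The fall held without either LPS+USP7i array and was lost without either LPS array.

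*Cysltr1* read 10.61 and 10.48 untreated, 10.99 and 11.22 after LPS, and 8.72 and 9.36 with LPS+USP7i by its brighter probe. The inhibitor group was the lowest on both arrays, below untreated cells as well. It fell by 2.06 from LPS (standard error 0.25, adjusted p = 0.0266), 4.17-fold, and by 1.51 from untreated (adjusted p = 0.0348), each held without either LPS+USP7i array and in no other such fit. The dimmer probe differed by −2.30 and −1.60 but did not pass (adjusted p = 0.0588 and 0.107). Among 6 other lipoxygenase and epoxide hydrolase genes, *Aloxe3* was not well above background with LPS and was higher with LPS+USP7i (adjusted p = 0.0328), in 5 of 8 alternative settings. *Alox12* was well above background only with LPS+USP7i, where it was higher than untreated (adjusted p = 0.0444). Both calls were lost with the replicate block (0.0664 and 0.0849) and in every fit without 1 array, and their sizes are not given since 1 group was not measured.

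**Figure D4:**
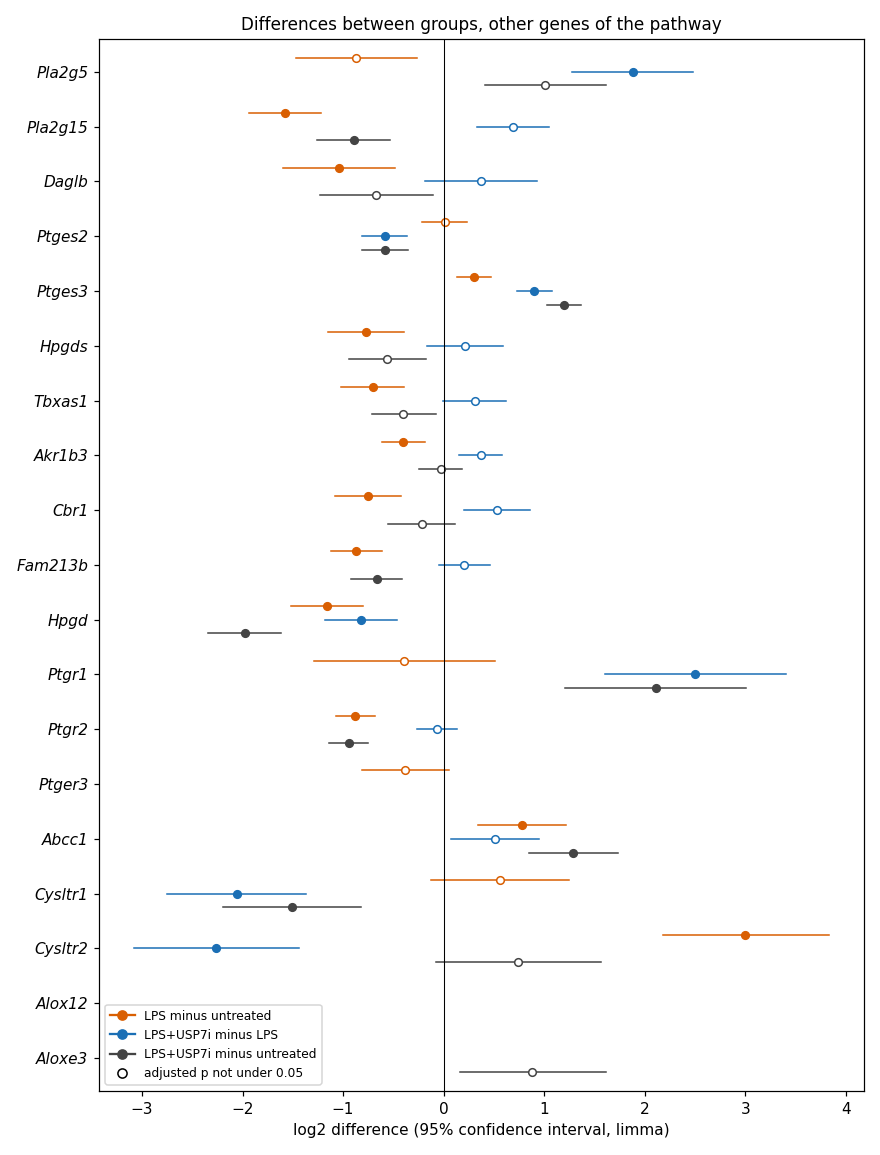
Log2 differences (horizontal axis, with 95% confidence intervals from limma) of the 19 other pathway genes that passed in any comparison, by the brightest probe; filled points had an adjusted p under 0.05, and comparisons with a group above background on no array are not drawn. Ptgr1 stands at 2.50 and Cysltr2 at −2.26 in LPS+USP7i minus LPS.

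Taking the 54 other pathway genes together, 38 were above background. LPS raised 3 and lowered 9, beside 13.8% and 23.0% of all gene names above background. The inhibitor raised 5, of which 4 were above background, and lowered 4 relative to LPS (9.73% and 7.29%), and LPS+USP7i against untreated gave 4 higher and 7 lower (10.8% and 15.6%). These counts were not tested. Their medians among genes above background were −0.34, 0.21 and −0.14, beside −0.19, 0.06 and −0.09 for all gene names above background. Of the calls of named genes in fits that lacked 1 array, 2 of 12 with LPS and 3 of 11 in LPS+USP7i minus untreated held in all 6 fits, and 1 of 8 in LPS+USP7i minus LPS (*Ptges3*) held in the 4 fits that called any probe.

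The genes most like *Ptgs2* and *Alox5* outside the pathway were sought by the distance between their 6 array values, each centered on its own mean, over 18276 gene names. For *Ptgs2*, itself above background on 1 untreated array, they included *Cxcl10* (distance 1.38), *Irg1* (1.42), *Gbp5* (1.66) and *Cd69* (1.80). Their LPS differences lay between 8.76 and 10.16, and their differences from LPS to LPS+USP7i spread from −0.26 for *Cxcl10* to −2.80 for *Cd69*, on both sides of the −1.33 of *Ptgs2*. *Vcam1* ranked first, ahead of these, but it was above background on neither untreated array, so its rank rests on signal that was not measured. For *Alox5*, whose values varied little, they were *Wee1* (0.142), *Dnajc24* (0.158), *Bbs9* (0.167), *Agps* (0.179) and a probe the array calls NAP113120-1 (0.179), all lowest in LPS+USP7i replicate 1.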

How the data were processed

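The raw Agilent files were read in R 4.3.3. As deposited, the files hold a processed signal intensity, background subtracted by the feature extraction software per the file headers, which was put on the log2 scale and quantile normalized over the 6 arrays. The deposited table of log2 values from the authors was used as an alternative. Outlier spots were left out and spots were averaged per probe. Differences were tested with limma 3.58.1 over all 6 arrays (3 residual degrees of freedom), and p values were adjusted by Benjamini and Hochberg over 55680 probes, with a threshold of 0.05. A gene was counted by its brightest probe. Well above background is the flag of the scanner software. Of 54 other pathway genes listed, those past the threshold in any comparison and well above background on the 2 arrays of any group were named, which were 19. The members and lists were chosen with earlier results of these data known. Replicate numbers were not treated as pairs. Tables and figures were made with Python 3.11.15, pandas 2.3.3 and matplotlib 3.10.9.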

Additional observations from a re-analysis of the deposited data

How the results depend on the processing

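The differences of the members, the calls of the 19 named genes and the counts of calls were repeated under alternative settings. Cell type markers, *Tbxa2r*, differences of named genes that did not pass and the likeness ranks were not, and the cause of any difference was not tested. Members higher with LPS numbered 1, and 2 with 75th percentile scaling, normexp background correction, dim probes left out, a trended prior, the replicate block, only the 2 groups compared, or the dimmest probe of a gene (1 to 2 with 1 array left out). Members lower with LPS numbered 1, and 0 with 75th percentile scaling or the deposited table and 3 with the replicate block (0 to 1 with 1 array left out). In LPS+USP7i minus LPS, members higher numbered 1, and 3 with normexp or dim probes left out, 2 with the trended prior or the replicate block and 0 with only the 2 groups compared (0 to 1 with 1 array left out). Members lower there numbered 0, and 1 with normexp, the deposited table or dim probes left out. In LPS+USP7i minus untreated, members higher numbered 2, and 3 with 75th percentile scaling (*Ptges*), the dimmest probe (*Ptges*), normexp (*Pla2g4a*) or dim probes left out (*Pla2g4a*), with 1 to 2 when 1 array was left out, and lower 0, with 1 under normexp and 2 with the replicate block. Signs reversed for *Ptges* with LPS (−0.23, against 0.31 with 75th percentile scaling and 5.65 by the dimmest probe) and with LPS+USP7i minus LPS (0.68 against −1.21 by the dimmest probe), for *Tbxas1* (−0.70 against 1.10) and *Pla2g5* (1.88 against −0.83) by the dimmest probe, which for these 2 genes was above background on no array, so that its sign was not measured, and for *Akr1b3* with LPS (−0.40 against 0.17) and *Alox5ap* in LPS+USP7i minus untreated (−0.39 against 0.01) with 75th percentile scaling. *Lta4h* in LPS+USP7i minus LPS was 0.04, against −0.05 with 75th percentile scaling, −0.06 with normexp and −0.11 with the deposited table. With 1 array left out, differences near 0 crossed it: *Ptger2* with LPS (−0.07 to 0.18), then in LPS+USP7i minus LPS *Ptgs1* (−0.45 to 0.27), *Pla2g4a* (−0.59 to 0.09), *Ptger4* (−0.43 to 0.28), *Alox5* (−0.64 to 0.02) and *Lta4h* (−0.21 to 0.29), and *Ptger4* in LPS+USP7i minus untreated (−0.25 to 0.45). Probes called with LPS numbered 9895, and 27437 with 75th percentile scaling (4017 to 9177 with 1 array left out), of which 39.9% and 79.3% were higher. In LPS+USP7i minus LPS they numbered 4704, 7059 with dim probes left out and 0 with only the 2 groups compared (0 to 4558, where the fits without either untreated array gave the 0). In LPS+USP7i minus untreated they numbered 7233, 26542 with 75th percentile scaling and 4684 with only the 2 groups (1557 to 5549), with 43.5% and 82.7% higher. As for pairing, deviations of replicates from group means correlated between groups at 0.47, 0.40 and 0.42, and the replicate block called 10412, 3543 and 7575 probes.

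Signal near background limits the size of any fold, as for *Ptgs2* in untreated cells. With 2 arrays per group, intervals are wide, and an absent call does not show that 2 groups are alike. RNA levels say nothing here about enzyme activity or about the lipids themselves, which were not measured. The inhibitor was not given without LPS, so its effect in unstimulated cells is unknown from these arrays. Place on the slide follows treatment, and 1 inhibitor at 1 dose and 1 time was used.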
